A study of Homo sapiens with 16 samples.

Results

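Gene deserts are long stretches of the genome that hold no protein-coding gene. Here they were the 1 Mb windows, counted from the start of chromosomes 1 to 22 on hg38, that no protein-coding RefSeq gene body overlapped and that held at least 50 TOP2A cleavage cluster regions over 5 deposited lists together. There were 214 such windows, or 8.07% of the 2652 windows that met the minimum. They held 102516 of the 1469949 regions that the lists had on chromosomes 1 to 22, X and Y, and 7.29% of those on the autosomes. The other 2438 windows met the same minimum, carried at least 1 protein-coding gene and are called gene-bearing. The cells were K562, an established chronic myeloid leukaemia line with a BCR-ABL1 fusion, and all groups received DMSO at 0.05%. Genistein was given at 50 µM, etoposide at 25 µM and mitoxantrone at 2 µM, each for 1 h, and p-benzoquinone at 8 µM for 4 h. The vehicle list came from cells given DMSO alone, for 1 or 4 h, and which of these times each library had is not given.

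TOP2A, DNA topoisomerase II alpha, passes a DNA duplex through a temporary break in another and stays covalently bound to the cut ends while the break is open. It relieves the supercoils and tangles left by transcription, replication and chromosome folding. TOP2 poisons keep the enzyme on its cut DNA, and a cleavage cluster region is a short interval where such DNA piled up after the enzyme was captured with an antibody. Deserts are usually AT-rich, late replicating and sparsely transcribed from protein-coding genes, but many carry long non-coding RNA (lncRNA) genes and distant enhancers of developmental genes. They are therefore stretches in which cleavage can be read away from protein-coding transcription units.

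Each list was 1 union over the amplified libraries of a treatment, 11 libraries in all, so there was no replicate list and no test between treatments. All intervals given are exact binomial 95% intervals and cover counting error only, and reads amplified without molecular identifiers are not independent molecules. The genistein list held 415215 regions, the p-benzoquinone list 359249, the mitoxantrone list 202865 and the etoposide list 182582, and the DMSO list 310038. The depth of each library is unknown, as the files hold called regions only. The scores of a list were of unlike kinds, and this touches every comparison between lists. Scores below 8 fell on whole multiples of 1 to 3 steps per list, at 99.2% to 100% of values, as they do when read numbers are multiplied by a factor for each library. Steps of 0.324 to 0.358 are called coarse and those of 0.228 to 0.246 fine. The regions on 1 step are called a step part, and a region that carried several values counted once for each. Titles of the amplified libraries came in 2 forms, with a 4 or with K562 after the amplification mark. Titles with a 4 numbered 2 under genistein, 1 under mitoxantrone, 1 under etoposide, 0 under p-benzoquinone and 1 with DMSO, which equals the number of coarse steps found in each list, a number chosen per list after the values were seen. Titles with K562 numbered 0, 0, 2, 2 and 2 in that order of lists, beside 0, 0, 2, 2 and 1 fine steps. No file ties a step to a library, so no part was given a library name.

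The deserts are long, mostly non-coding stretches with plenty of annotated RNA genes. They held the midpoints of 889 lncRNA genes, 659 pseudogenes and 35 microRNA genes of the RefSeq table, and only 5 windows overlapped no RefSeq gene of any kind. RefSeq (GRCh38.p14) lists 601 lncRNA promoters in them, each taken from 250 bases before to 50 bases after a start. The median GC content of these promoters was 39.0%, against 50.7% in 11605 lncRNA promoters and 62.7% in 20673 protein-coding promoters of gene-bearing windows. Of the 601 promoters, 448 overlapped no region, 130 overlapped regions of 1 list, 23 those of 2 lists and 0 those of 3 or more. The 5 sequences below are examples of DNA at desert cleavage regions where 2 lists met on the same bases. They were chosen from the 23 after their values were seen. Each is written 5′ to 3′ on the gene's strand, and capitals mark the bases that regions of both lists covered.
LOC124902966, chr12:73362821-73363120, plus strand: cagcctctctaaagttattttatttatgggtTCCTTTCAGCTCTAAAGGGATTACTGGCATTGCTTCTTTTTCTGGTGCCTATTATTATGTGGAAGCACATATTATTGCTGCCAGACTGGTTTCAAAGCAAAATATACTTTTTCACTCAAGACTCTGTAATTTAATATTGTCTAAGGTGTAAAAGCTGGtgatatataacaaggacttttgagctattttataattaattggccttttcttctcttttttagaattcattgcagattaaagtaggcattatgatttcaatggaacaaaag
LINC00374, chr13:58233068-58233367, minus strand: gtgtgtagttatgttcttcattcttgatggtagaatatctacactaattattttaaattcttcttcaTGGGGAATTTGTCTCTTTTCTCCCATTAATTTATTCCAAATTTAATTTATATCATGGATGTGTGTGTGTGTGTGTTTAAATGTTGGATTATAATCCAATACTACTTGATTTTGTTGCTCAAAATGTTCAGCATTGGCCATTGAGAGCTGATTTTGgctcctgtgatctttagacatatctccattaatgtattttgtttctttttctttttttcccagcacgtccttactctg
LOC107985116, chr1:106038100-106038399, plus strand: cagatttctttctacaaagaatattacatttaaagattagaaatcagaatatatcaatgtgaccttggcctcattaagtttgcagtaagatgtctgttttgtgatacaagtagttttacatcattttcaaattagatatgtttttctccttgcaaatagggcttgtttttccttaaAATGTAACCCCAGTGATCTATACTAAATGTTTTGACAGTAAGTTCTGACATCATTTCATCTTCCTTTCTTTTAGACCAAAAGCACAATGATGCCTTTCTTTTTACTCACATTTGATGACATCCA
LINC00358, chr13:62029499-62029798, minus strand: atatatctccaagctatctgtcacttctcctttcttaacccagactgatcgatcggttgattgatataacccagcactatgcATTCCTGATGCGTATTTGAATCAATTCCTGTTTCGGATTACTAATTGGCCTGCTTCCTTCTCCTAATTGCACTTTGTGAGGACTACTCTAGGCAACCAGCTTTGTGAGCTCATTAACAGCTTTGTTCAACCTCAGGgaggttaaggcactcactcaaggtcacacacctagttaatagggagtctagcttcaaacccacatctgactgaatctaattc
LOC105370647, chr14:97027465-97027764, plus strand: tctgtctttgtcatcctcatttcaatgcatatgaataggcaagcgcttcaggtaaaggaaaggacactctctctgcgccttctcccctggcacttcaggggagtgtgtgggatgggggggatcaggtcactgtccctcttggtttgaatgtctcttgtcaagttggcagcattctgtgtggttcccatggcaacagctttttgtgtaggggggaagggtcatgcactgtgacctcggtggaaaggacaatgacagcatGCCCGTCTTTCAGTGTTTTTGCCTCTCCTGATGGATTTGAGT
The promoter of LOC124902966 overlapped an etoposide region of score 9.16 and a genistein region of 15.9, which shared 158 bases of 36.1% GC. At LINC00374 an etoposide region of 25.1 and a mitoxantrone region of 12.6 shared 155 bases of 32.3% GC. At LOC107985116 a genistein region of 19 and a mitoxantrone region of 5.83 shared 124 bases of 33.9% GC. These 3 promoters had a GC content of 32.3%, 32% and 31% over their full 300 bases, and are the lowest in GC of the 7 met by pairs among etoposide, genistein and mitoxantrone, which ran from 31% to 43% with a median of 35.3%. The 8 met by p-benzoquinone and another list ran from 38% to 53.3%, with a median of 44.5%. The rest of the 23, met by DMSO and etoposide, genistein or mitoxantrone, ran from 26.7% to 52%. Regions of 2 lists overlapped each of the 23 promoters, but at some, such as LINC01899, they shared 0 bases. LINC00358 was met by genistein, at a score of 4.30, and p-benzoquinone, at 4.58, over 136 bases of 42.6% GC. LOC105370647 was met by p-benzoquinone, at 2.72, and DMSO, at 6.44, over 42 bases of 47.6% GC. The score is the authors' deposited value and has no stated unit, so it is read within a list only.

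Deserts were not empty of cleavage in any list, and the lists differed in how far deserts stood from the rest of the genome. The count of regions in a desert window over the 5 lists ran from 57 to 659 with a median of 503.5, against a median of 547 in gene-bearing windows. Genistein gave 158.5 ± 37.5 regions per Mb in deserts (SD over 214 windows), against 148.2 ± 33.2 in gene-bearing windows, a ratio of 1.07 (1.058 to 1.081). Mitoxantrone gave 77.1 ± 19.2 per Mb in deserts, against 72.4 ± 16.4 in gene-bearing windows, a ratio of 1.065 (1.048 to 1.082). Deserts were the denser class in these 2 lists, but not with windows under 50 regions kept, where the ratios were 0.979 under genistein and 0.974 under mitoxantrone. Etoposide gave 62.8 ± 16.2 per Mb in deserts, against 65.7 ± 14.8 in gene-bearing windows, a ratio of 0.955 (0.938 to 0.972) that was 1.029 among regions with scores of at least 4. p-Benzoquinone, a benzene metabolite, gave 87.2 ± 32.4 per Mb in deserts, against 134.7 ± 44.7 in gene-bearing windows, a ratio of 0.647 (0.638 to 0.657). DMSO gave 93.5 ± 25.3 per Mb in deserts, against 113.5 ± 27.0 in gene-bearing windows, a ratio of 0.824 (0.812 to 0.835). In every list the SD over windows was larger than the difference between the 2 classes of window, except for p-benzoquinone. Regions were equally short in both classes, with median widths of 148 to 161 bases in deserts and 150 to 160 bases in gene-bearing windows.

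**Figure D1:**
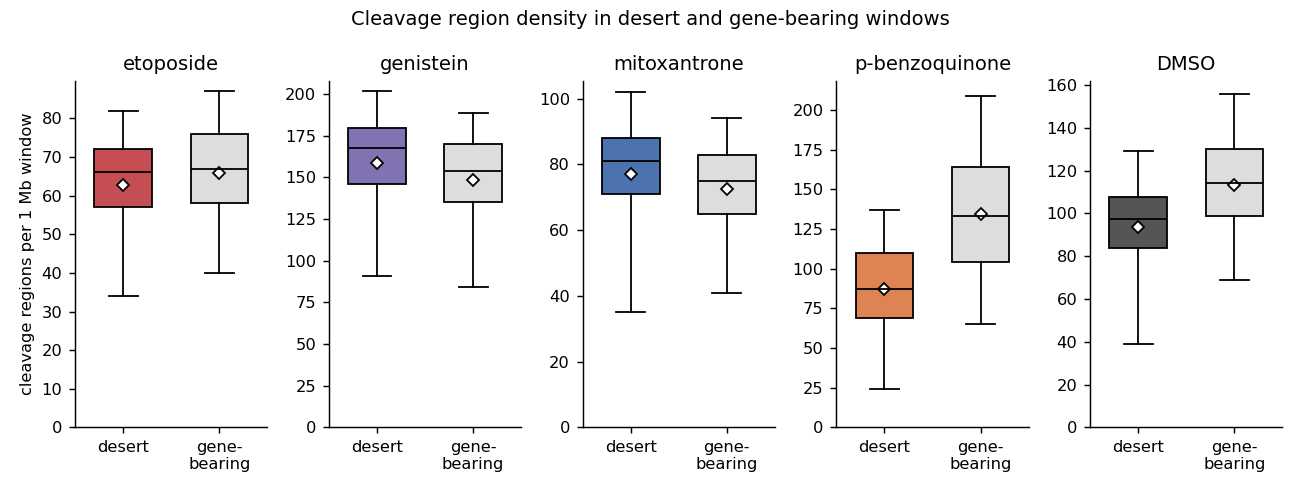
Cleavage regions per 1 Mb window in the 214 desert windows (coloured) and the 2438 gene-bearing windows (grey) of the 5 lists, each panel on its own axis from 0. Boxes are quartiles with the median, whiskers run from the 5th to the 95th percentile, and diamonds are means; under p-benzoquinone the desert mean of 87.2 lies below the gene-bearing mean of 134.7, and under genistein the desert mean of 158.5 lies above the gene-bearing mean of 148.2.

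Deserts lay on all 22 autosomes, from 28 windows on chromosome 4 and 23 on chromosome 2 to 1 each on chromosomes 20 and 22. Under p-benzoquinone the desert density was higher than the gene-bearing density on 0 of 22 chromosomes, under etoposide on 10, under genistein on 16, under mitoxantrone on 15 and with DMSO on 2. On chromosome 4 the ratio of desert to gene-bearing density was 1.06 under mitoxantrone, 1.05 under genistein, 0.971 under etoposide, 0.684 under p-benzoquinone and 0.847 with DMSO. On chromosome 18, with 7 desert windows, deserts were the denser class even with DMSO, at 112.3 against 107.8 per Mb in gene-bearing windows. On chromosome 13, where 16.7% of windows were deserts, p-benzoquinone gave 56.8 per Mb in deserts against 90.7 in gene-bearing windows. The 3 desert windows of chromosome 17 had the lowest ratio of any chromosome in every list, from 0.265 under p-benzoquinone to 0.462 under genistein, and 2 of them are among the 5 deserts poorest in regions.

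Read as a share of each list, 7.73% of etoposide, 8.58% of genistein, 8.54% of mitoxantrone and 5.37% of p-benzoquinone regions on the autosomes lay in deserts, against 6.74% of DMSO regions. As log2 ratios over the DMSO share, genistein stood at 0.35 (0.32 to 0.37), mitoxantrone at 0.34 (0.31 to 0.37) and etoposide at 0.20 (0.17 to 0.23). p-Benzoquinone stood at -0.33 (-0.36 to -0.30). The desert share was higher than that of DMSO on 22 of 22 chromosomes for etoposide and mitoxantrone, on 20 for genistein and on 0 for p-benzoquinone. The 4 ratios have the same DMSO list as denominator. Exposure to p-benzoquinone was also longer than to the other poisons.

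Single windows gave the same picture. A window was called where its scaled number of regions, with 1 region added, was more than 1.5-fold above or below DMSO. Under genistein 45 of 214 desert windows (21.03%) were called higher and 2 lower, where 3.43% and 4.37% of all 2652 windows were called. Under mitoxantrone 49 (22.9%) were called higher and 2 lower, where 4.41% and 4.26% of all windows were. Under etoposide 13 (6.08%) were called higher and 2 lower, where 1.92% and 1.58% of all windows were. Under p-benzoquinone 1 was called higher and 49 (22.9%) lower, where 1.81% and 6.0% of all windows were. The median log2 ratio over desert windows was 0.37 under genistein, 0.35 under mitoxantrone, 0.22 under etoposide and -0.34 under p-benzoquinone, and over all windows it lay between -0.026 and 0.016.

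**Figure D2:**
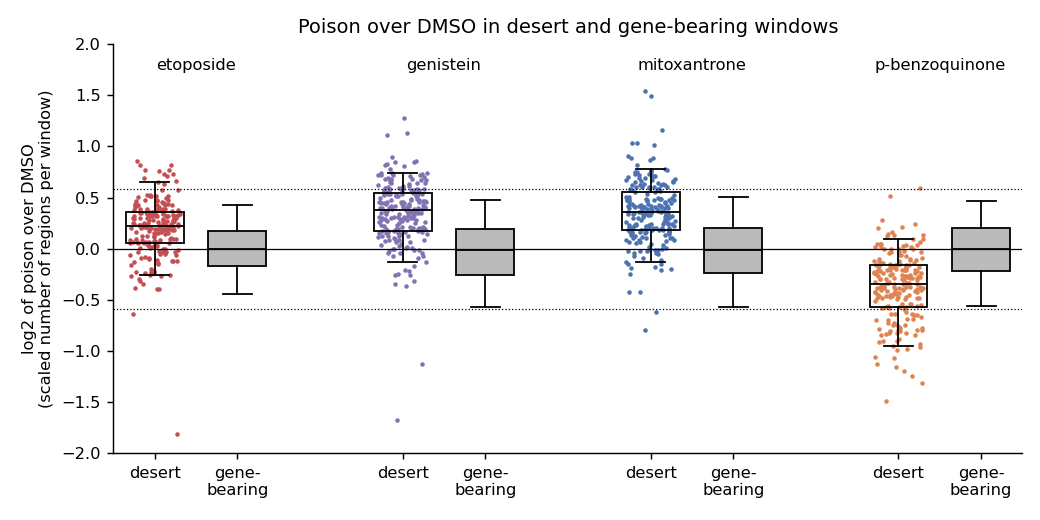
Log2 ratio of the scaled number of regions per window, poison over DMSO, for each of the 4 poisons. Points are the 214 desert windows, boxes are quartiles with the median and whiskers from the 5th to the 95th percentile, grey boxes are gene-bearing windows and dotted lines mark 1.5-fold; the desert medians are 0.22, 0.37, 0.35 and -0.34.

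The desert share also differed between score steps of 1 list. Within the DMSO list alone, 5.25% of the fine part lay in deserts (5.12 to 5.38), against 8.15% of the coarse part (7.90 to 8.40), a log2 ratio of -0.64 (-0.69 to -0.58). That difference, within cells given DMSO alone, was larger than any difference between a poison list and DMSO. Every coarse part had 8.15% to 9.07% of its regions in deserts and every fine part 3.97% to 5.76%. The etoposide list held both classes. Its coarse part had a desert share of 8.93% and its fine parts 5.04% and 3.97%. As ratios of desert to gene-bearing density, the coarse parts of genistein stood at 1.126 and 1.138, that of etoposide at 1.118 (1.086 to 1.152), that of mitoxantrone at 1.099 (1.062 to 1.136) and that of DMSO at 1.012 (0.979 to 1.046). The fine parts stood at 0.605 and 0.472 for etoposide, 0.637 and 0.697 for p-benzoquinone and 0.632 (0.616 to 0.648) for DMSO. Desert density was higher on 16 to 19 of 22 chromosomes in the coarse poison parts, on 9 in the coarse DMSO part, and on 1 or 2 in the fine parts.

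**Figure D3:**
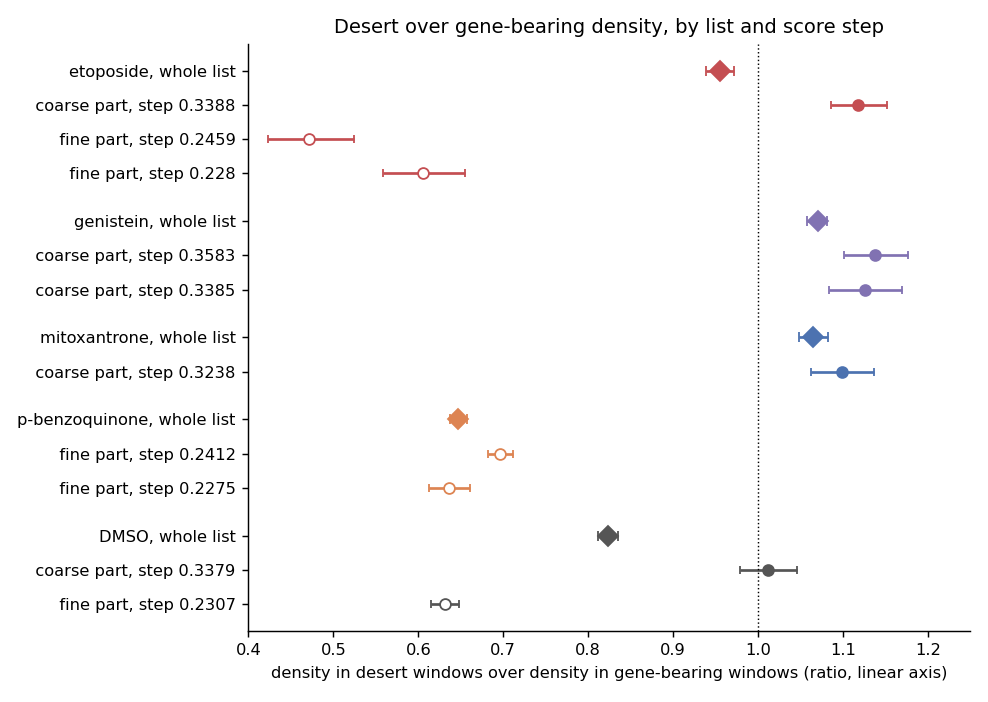
Density of regions in desert windows over that in gene-bearing windows, for each whole list (diamonds) and each step part with scores below 8 (filled circles coarse, open circles fine), with exact binomial 95% intervals. The 5 coarse parts lie between 1.012 and 1.138 and the 5 fine parts between 0.472 and 0.697. Etoposide and DMSO have parts of both classes, genistein and mitoxantrone coarse parts only, and p-benzoquinone fine parts only.

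Compared within a class, genistein, mitoxantrone and p-benzoquinone lay closer to DMSO in deserts than as whole lists, and etoposide did so in its coarse part and in 1 of its 2 fine parts. Against the coarse DMSO part, the log2 ratio of desert shares was 0.14 (0.071 to 0.21) and 0.15 (0.089 to 0.22) in the genistein parts, 0.13 in the coarse etoposide part (0.070 to 0.19) and 0.11 in the mitoxantrone part (0.043 to 0.17). Against the fine DMSO part, the p-benzoquinone parts were at 0.011 (-0.053 to 0.075) and 0.13 (0.088 to 0.18), so the lower desert share of the whole p-benzoquinone list was not seen within its class. The fine etoposide parts were at -0.058 (-0.18 to 0.059) and -0.40 (-0.56 to -0.25), on the other side of 0 from the coarse etoposide part. Parts of 1 class and 1 treatment could thus lie apart from each other. Regions with scores of 8 or more and values on no step or several could not be placed, which left out 57.1% of etoposide, 81.4% of genistein, 77.4% of mitoxantrone, 37.8% of p-benzoquinone and 46.1% of DMSO values. Treatment and step class cannot be told apart in the whole lists.

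Density changed with gene number in every list, and deserts were the end of a steady gradient under p-benzoquinone only. Under p-benzoquinone the density was 87.2 per Mb in windows with no protein-coding gene, 113.5 with 1 to 2 genes, 132.7 with 3 to 5, 142.3 with 6 to 10, 148.8 with 11 to 20 and 152.3 with over 20. Genistein ran the other way from 1 to 2 genes onward. It gave 158.5 per Mb at 0 genes, 163 at 1 to 2 and 158.3 at 3 to 5. It then gave 147.2 at 6 to 10, 129.5 at 11 to 20 and 113 at over 20. Mitoxantrone gave 77.1 per Mb at 0 genes, 78.8 at 1 to 2 genes and 57.0 at over 20 genes. Etoposide and DMSO peaked in between. Etoposide gave 62.8 per Mb at 0 genes, 68.7 at 3 to 5 and 56.9 at over 20, and DMSO gave 93.5, 116.3 and 107.2 in the same classes. No list was densest in the deserts themselves. The step parts split by class here as well. Relative to its own mean, the fine DMSO part stood at 0.651 in deserts and 1.109 in windows with over 20 genes, and the coarse DMSO part at 1.011 and 0.865. The coarse etoposide part stood at 1.108 in deserts and 0.788 in windows with over 20 genes, beside 0.493 and 1.278 in the fine etoposide part of step 0.2459.

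**Figure D4:**
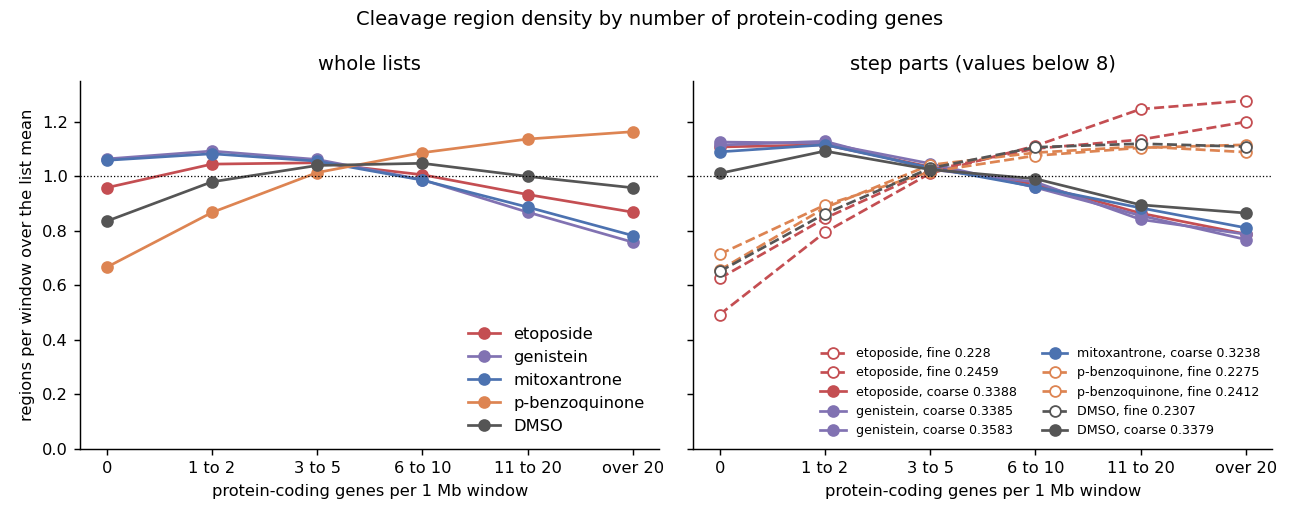
Mean number of regions per 1 Mb window divided by the mean over all windows, by number of protein-coding genes in the window, for whole lists (left) and step parts with scores below 8 (right; solid lines and filled circles coarse, dashed lines and open circles fine). At 0 genes the whole lists run from 0.666 for p-benzoquinone to 1.064 for genistein, and on the right the fine parts climb up to 11 to 20 genes, after which those of DMSO and of p-benzoquinone at step 0.2275 fall slightly, and the coarse parts decline from 1 to 2 genes onward.

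In every list regions beyond 1 Mb from a gene were sparser than at 100 to 250 kb. Desert bases lay a median of 755.5 kb from the nearest protein-coding gene and at most 2429 kb. At 100 to 250 kb from a gene genistein gave 163.2 regions per Mb and p-benzoquinone 104.1, against 110.2 in DMSO. Beyond 1 Mb genistein gave 152.9 and p-benzoquinone 74.7, against 84.9 in DMSO. Over the same distances etoposide gave 67.3 and then 58.8 per Mb, and mitoxantrone 80.4 and then 73.5. In the 0.683 Mb of desert under 50 kb from a gene, every list was sparser than at 100 to 250 kb. Etoposide gave 57.1 per Mb there, which is also below its density beyond 1 Mb. The log2 ratio over DMSO was -0.31 at 100 to 250 kb and -0.41 beyond 1 Mb for p-benzoquinone, and 0.15 and 0.43 for genistein. For p-benzoquinone it was 0.11 at 50 to 100 kb, from 224 regions, and -0.35 under 50 kb, so it did not change steadily with distance. In 37 windows that lay in runs of 3 or more, genistein gave 167.0, mitoxantrone 80.5 and p-benzoquinone 84.5 per Mb, and in 125 lone windows they gave 151.8, 74.1 and 89.2. Etoposide gave 63.0 in the long runs and 61.6 in lone windows, and DMSO 94.1 and 92.9. All lists but p-benzoquinone were thus denser in the long runs, and these differences were not tested. Stretches empty in all lists were not taken out of the Mb, by distance or by run, and their part in these densities was not tested.

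Regions were denser inside lncRNA genes than elsewhere in deserts. lncRNA genes covered 49.3 Mb of the 214 Mb. Stretches empty in all lists were not taken out of the Mb inside or outside. The 5 windows with no RefSeq gene, some of them partly empty, counted as outside. The part of empty stretches in the ratios below was not tested. The density inside their bodies over that outside was 1.138 under etoposide (1.095 to 1.184), 1.134 under p-benzoquinone (1.097 to 1.172), 1.062 under genistein (1.036 to 1.089) and 1.058 under mitoxantrone (1.021 to 1.097), and 1.121 with DMSO (1.085 to 1.157). The intervals of the poisons overlapped that of DMSO. In genistein, for example, this was 166.0 regions per Mb inside and 156.3 per Mb outside. Median scores inside and outside were equal for etoposide, p-benzoquinone and DMSO, and stood at 12.55 inside and 12.2 outside for genistein and 12.95 and 12.6 for mitoxantrone.

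The overlap of desert promoters with regions was also read by base composition. Of the 601 desert lncRNA promoters, 24 overlapped an etoposide region (3.99%), 50 a genistein region (8.32%), 26 a mitoxantrone region (4.33%), 38 a p-benzoquinone region (6.32%) and 38 a DMSO region (6.32%). Among those below 35% GC, such as LINC00374 and LOC107985116 printed above, 2.87% overlapped a p-benzoquinone region (0.940 to 6.58) and 9.77% a genistein region (5.80 to 15.2). Among those with 45 to 50% GC, 13.4% overlapped a p-benzoquinone region (6.33 to 24.0) and 7.46% a genistein region (2.47 to 16.6). At 50% GC or more, 8.86% overlapped a p-benzoquinone region (3.64 to 17.4). The intervals of these p-benzoquinone shares overlap. In the lncRNA promoters of gene-bearing windows, with many more members, 3.96% of those below 35% GC and 12.8% of those with 45 to 50% GC overlapped a p-benzoquinone region, and 8.47% of those at 50% or more. Genistein overlapped 8.88% of their promoters below 35% GC, 7.85% of those with 45 to 50% and 4.52% of those at 50% or more. The GC content of the regions themselves was not analysed here, and the part of base composition in the desert densities was not tested.

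The median score of desert regions was 0.907 to 1.17 times that of regions in gene-bearing windows. Median scores in deserts and in gene-bearing windows were 12.5 and 13.2 under genistein, 12.6 and 13.3 under mitoxantrone, 7.80 and 7.78 under etoposide, 4.58 and 5.05 under p-benzoquinone, and 7.10 and 6.08 with DMSO. With DMSO the desert median was 1.17 times that of gene-bearing windows. Within its parts the medians were equal, at 2.77 and 2.77 in the fine part and 6.42 and 6.42 in the coarse part. The parts hold only scores below 8 on multiples of a step, so equal medians there cannot show that strength is alike. The share of regions that lay in deserts was 5.98% among p-benzoquinone regions with scores under 4 and 3.61% among those of 32 to 64. For genistein it was 9.21% at 4 to 8 and 6.79% at 64 and over. For DMSO it was 5.48% under 4, a range that coarse parts reach only from 3.72, and 7.67% at 8 to 16. For etoposide it was 5.399% under 4, 8.55% at 4 to 8 and 5.92% at 32 to 64. The desert share was thus lower in the highest bin than at 4 to 8 under etoposide, genistein and p-benzoquinone, with intervals that do not overlap, while under etoposide the weakest regions, under 4, also had a low share.

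**Figure D5:**
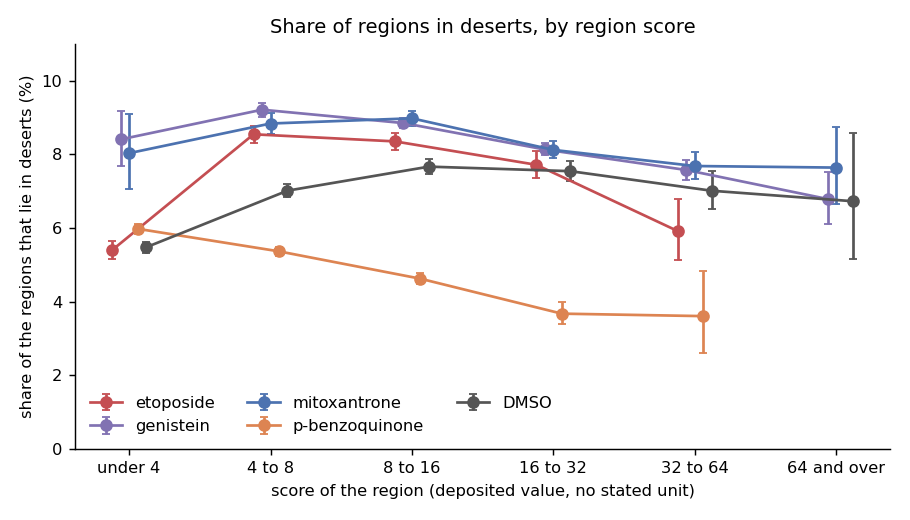
Share of a list's autosomal regions that lie in desert windows, by the deposited score of the region, with exact binomial 95% intervals, for bins with regions enough to be listed. The p-benzoquinone share is 5.98% under 4 and 3.61% at 32 to 64, and the DMSO share is 5.48% under 4 and 7.67% at 8 to 16.

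The mitoxantrone list alone carried an input score for each region. The input was 0 at 25.6% of desert regions (24.9 to 26.2), against 21.7% of regions in gene-bearing windows (21.5 to 21.9). Its mean was 0.407 in deserts and 0.463 in gene-bearing windows. Where input was above 0, the median log2 ratio of the treated over the input score was 4.89 in deserts and 4.82 in gene-bearing windows. Input was thus lower at desert regions in this list. No region with input had a log2 ratio below 4.00, so the treated score bounds the input that a region can have. The mean treated score was also lower in deserts, at 16.7 against 17.5 in gene-bearing windows. The part of this bound in the lower input was not tested, nor was the part of input in the mitoxantrone density.

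Desert regions were seldom shared between lists, and so were those of gene-bearing windows. Of the etoposide regions in deserts 6.49% overlapped a DMSO region by at least 1 base, against 8.63% in gene-bearing windows. The same shares were 6.34% and 8.03% under p-benzoquinone, 5.63% and 7.28% under mitoxantrone, and 5.56% and 6.98% under genistein. DMSO regions covered 1.55% of desert bases, against 1.88% in gene-bearing windows. Divided by that cover, the overlap was 4.18 in deserts and 4.59 in gene-bearing windows under etoposide, and 4.08 and 4.27 under p-benzoquinone. It was 3.63 and 3.87 under mitoxantrone, and 3.58 and 3.72 under genistein. Relative to cover the 2 classes thus lay closer together, and what remained was not tested. After regions of all lists were merged where they touched, 89.3% of desert regions came from 1 list, against 87.6% in gene-bearing windows. Merged regions that held all 5 lists numbered 5 in deserts, against 63 in gene-bearing windows, which is 0.0055% of the merged regions in each class.

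In none of those 5 places did a single base lie in regions of all 5 lists. At chr5:4841035-4841585, between IRX1, an Iroquois homeobox gene, and ADAMTS16, a secreted metalloprotease gene, the scores were 42.5 under mitoxantrone, 3.72 under etoposide, 3.36 under p-benzoquinone and 39.0 under genistein, and 8.45 with DMSO. This place lies in the lncRNA gene LOC107986400. At chr3:34977826-34978676, in LOC101928135, they were 20.1, 10.8, 11.6 and 32.5, and 2.07 with DMSO. Further such places were chr2:83475196-83475609, between CTNNA2 and SUCLG1, and chr16:59119761-59120177, between GOT2 and CDH8. The highest score in deserts in each list lay elsewhere, and none of these regions overlapped a region of another list. They were 81.9 for etoposide, at chr8:83801429-83801573, and 189.5 for genistein, at chr18:39481095-39481561 in the microRNA host gene MIR924HG. Mitoxantrone had 155 at chr1:80809403-80809653, between ADGRL4 and ADGRL2. p-Benzoquinone had 87.3 at chr18:39178275-39178432, and DMSO had 179.4 at chr3:163303135-163303450 in LINC01192.

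Among single deserts, the one richest in regions was chr5:4000001-5000000, between IRX1 and ADAMTS16. It held 68 etoposide, 183 genistein, 74 mitoxantrone and 180 p-benzoquinone regions, and 154 DMSO regions, 659 in all. Etoposide and mitoxantrone were low there relative to DMSO, with log2 ratios of -0.40 and -0.43, and p-benzoquinone was level at -0.0028. Next came chr18:38000001-39000000 with 645 regions, chr7:46000001-47000000 between IGFBP3 and TNS3 with 638, chr15:95000001-96000000 between MCTP2 and the nuclear receptor gene NR2F2 with 632, and chr19:28000001-29000000 with 631. The 5 windows with the fewest regions were chr17:26000001-27000000 with 57, chr17:22000001-23000000 with 67, chr11:135000001-136000000 with 68, chr3:90000001-91000000 with 78 and chr10:41000001-42000000 with 90. Regions were found in only 4, 7, 1, 7 and 3 of the 10 bins of 100 kb in these windows, so part of each was empty in all lists. Just outside the minimum lay chr6:60000001-61000000 with 49 regions, chr2:89000001-90000000 with 47 and chr7:61000001-62000000 with 39. In all, 25 gene-free windows had 1 to 49 regions and were left out, as were 46 gene-bearing windows.

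The highest ratios over DMSO among deserts with at least 30 regions in either list came from the following windows. At chr4:160000001-161000000, between RAPGEF2 and FSTL5, there were 34 etoposide, 94 genistein, 43 mitoxantrone and 19 p-benzoquinone regions, and 32 DMSO regions. Its log2 ratios over DMSO were 0.86 for etoposide, 1.11 for genistein and 1.04 for mitoxantrone, and -0.95 for p-benzoquinone. At chr2:194000001-195000000, between TMEFF2 and SLC39A10, there were 64, 137, 83 and 53 regions, and 62 in DMSO. Its log2 ratios were 0.82, 0.72, 1.04 and -0.45. At chr13:56000001-57000000 the etoposide ratio was 0.82, from 67 regions against 65 in DMSO. Genistein was also high at chr12:37000001-38000000, between ALG10 and ALG10B, with 34 regions against 11 in DMSO, and at chr10:39000001-40000000, with 46 against 18. Mitoxantrone was high at chr13:65000001-66000000, ahead of PCDH9, with 87 against 71. The lowest ratios of these poisons were smaller in size. Etoposide was lowest after the IRX1 window at chr4:12000001-13000000, with 60 regions against 135 and a log2 ratio of -0.38, and at chr5:101000001-102000000, with 45 against 99. Genistein was lowest at chr8:46000001-47000000, with 109 against 105 and a log2 ratio of -0.36, and at chr7:68000001-69000000, ahead of AUTS2, with 131 against 125. Mitoxantrone was lowest at chr11:50000001-51000000, with 16 against 39 and a log2 ratio of -0.61. The poisons share the DMSO list in these ratios. p-Benzoquinone was not high in the windows named first, with log2 ratios of -0.95, -0.45 and -0.78 in the windows on chromosomes 4, 2 and 13 where etoposide was high.

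p-Benzoquinone was lowest at chr13:58000001-59000000, between PCDH17, a protocadherin gene, and DIAPH3, with 49 regions against 105 in DMSO and a log2 ratio of -1.31. The LINC00374 promoter printed above lies in this window. It was next lowest at chr3:83000001-84000000, between GBE1 and CADM2, with 46 regions against 94 in DMSO, and at chr14:43000001-44000000, between LRFN5 and FSCB, with 40 against 79. The only desert called higher under p-benzoquinone was chr13:90000001-91000000, between SLITRK5 and GPC5, with 91 regions against 51 in DMSO and a log2 ratio of 0.60. The mean input score of the mitoxantrone list was 0.768 in this window, against 0.407 over all desert regions, and its part was not tested. The next highest under p-benzoquinone were chr3:34000001-35000000, with 151 against 106, and chr12:126000001-127000000, with 126 against 91. The desert next to MYC, chr8:128000001-129000000, overlaps the lncRNA gene PVT1. It had 50 etoposide, 103 genistein, 44 mitoxantrone and 119 p-benzoquinone regions, and 92 DMSO regions, with log2 ratios of -0.094, -0.25, -0.43 and 0.14.

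By median score the leading desert was chr6:164000001-165000000 for etoposide, at 10.2 where the list's desert median was 7.80, and chr12:37000001-38000000 for genistein, at 15.96 beside 12.5. For mitoxantrone it was chr5:46000001-47000000, at 20.3 beside 12.6, followed by the SLITRK5 to GPC5 window at 18.1 and the IRX1 window at 17.8. For p-benzoquinone it was chr10:36000001-37000000, at 6.03 beside 4.58, and for DMSO chr2:193000001-194000000, at 9.81 beside 7.10. The window next to MYC ranked high for genistein, at 15.2. No window led in 2 lists.

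The longest unbroken desert was chr4:32000001-36000000, 4 windows between PCDH7 and ARAP2. It held 58.8 etoposide, 161.8 genistein, 77.2 mitoxantrone and 70.5 p-benzoquinone regions per Mb, and 79.0 DMSO regions per Mb. Its log2 ratios over DMSO were 0.35, 0.62, 0.59 and -0.39. The richest run of 3 windows was chr18:38000001-41000000, between LOC105372073 and PIK3C3, with 127 p-benzoquinone and 130 DMSO regions per Mb and a p-benzoquinone ratio of -0.26. It holds the highest-scoring genistein and p-benzoquinone regions of all deserts. Next in number of regions among the runs of 3 windows were chr2:81000001-84000000 between CTNNA2 and SUCLG1, chr4:178000001-181000000 between AGA and TENM3, and chr1:187000001-190000000 between PLA2G4A and BRINP3. In each of the 5 runs named genistein and mitoxantrone were above DMSO and p-benzoquinone below it. The 214 windows formed 163 runs, of which 125 were single windows.

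Deserts were also grouped by the genes next to them. Of a list of 62 adhesion and synapse genes, which often border large deserts, 39 were the nearest protein-coding gene of 67 desert windows, among them PCDH9, CDH8, CNTNAP2, LRP1B and ROBO1. These windows gave 61.9 etoposide, 164.4 genistein, 78.2 mitoxantrone and 79.1 p-benzoquinone regions per Mb, and 89.9 DMSO regions per Mb. Their median log2 ratios over DMSO were 0.25, 0.46, 0.41 and -0.44, beside 0.22, 0.37, 0.35 and -0.34 over all deserts. Of a list of 50 developmental regulators, 9 bordered 10 desert windows, among them BCL11B, IRX1, NR2F1, NR2F2 and SOX9. These windows gave 74.2 etoposide, 165.5 genistein, 74.7 mitoxantrone and 113.1 p-benzoquinone regions per Mb, and 107.6 DMSO regions per Mb. Their median log2 ratios were 0.34, 0.24, 0.18 and -0.096. Of 15 housekeeping genes none bordered a desert window, and of 12 erythroid and leukaemia genes 1 did, MYC. The share of all protein-coding genes that border a desert was not computed, so these short lists give no contrast with the others. The adhesion and developmental lists were chosen for genes that border deserts. The small number of windows beside developmental genes was not set against the spread of the rest.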

How the data were processed

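K562 cells were lysed, TOP2A was immunocaptured and the released DNA was amplified before library preparation, per the labels' protocols. The authors deposited 1 list of regions per treatment, with a score of no stated unit for each region. The deposited mitoxantrone list also gave an input score and a log2 value, which equalled the log2 of the treated over the input score and was at least 4.00. A p-value deposited by the authors for part of that list was not used. Per the submitters' processing notes, the build was hg38 and the tools included SAMtools 0.1.19 and Bowtie2 2.1.0. How regions were called is not given in the sources used here. No description ties a library to the mitoxantrone list, which was matched to its treatment by name.

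Regions on sequences other than chromosomes 1 to 22, X and Y were left out. Overlapping genistein entries were joined, which removed 10562. Regions were placed by their centre, and gene bodies were those of RefSeq on GRCh38.p14. Poison over DMSO numbers were scaled to list size on chromosomes 1 to 22. Scores below 8 were assigned to a step where they lay within 0.02 of a multiple of exactly 1 step. The number of steps per list was set after the values were seen. Named windows were those with the most and fewest regions, with the highest and lowest ratios over DMSO at 30 or more regions in either list, in the longest runs, or highest by median score. The members and lists were chosen with earlier results of these data known. The scripts ran on simulated data first. The work used pandas 2.3.3, numpy 2.4.6, scipy 1.17.1, matplotlib 3.10.9 and Python 3.11.15.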

Additional observations from a re-analysis of the deposited data

How the results depend on the processing

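The desert density ratio passed to the other side of 1 for genistein and mitoxantrone with no minimum number of regions and in windows with no RefSeq gene, for etoposide with coarse steps or scores of at least 4, and for DMSO with coarse steps. The density ratio for p-benzoquinone stayed below 1 under all alternatives run, and for DMSO under all but coarse steps. The log2 ratio of the desert share over DMSO stayed above 0 for genistein and mitoxantrone under all that gave a value. With coarse steps alone, the density ratio was 1.133 (genistein), 1.099 (mitoxantrone), 1.118 (etoposide) and 1.012 (DMSO) and the ratio of median scores was 1.115 (genistein), 1 (mitoxantrone), 1 (etoposide) and 1 (DMSO). There, the log2 share ratio was 0.15 (genistein), 0.11 (mitoxantrone) and 0.13 (etoposide), and windows called higher numbered 26 (genistein), 30 (mitoxantrone) and 28 (etoposide), and windows called lower numbered 10 (genistein), 16 (mitoxantrone) and 10 (etoposide). With fine steps alone, the density ratio was 0.55 (etoposide), 0.681 (p-benzoquinone) and 0.631 (DMSO) and the ratio of median scores was 0.927 (etoposide), 0.988 (p-benzoquinone) and 1 (DMSO). There, the log2 share ratio was -0.19 (etoposide) and 0.10 (p-benzoquinone), and windows called higher numbered 42 (etoposide) and 19 (p-benzoquinone), and windows called lower numbered 40 (etoposide) and 5 (p-benzoquinone). With coarse steps at scores of 4 to 8, chosen after seeing the data, the density ratio was 1.139 (genistein), 1.106 (mitoxantrone), 1.119 (etoposide) and 1.019 (DMSO) and the log2 share ratio was 0.15 (genistein), 0.11 (mitoxantrone) and 0.12 (etoposide). With fine steps at scores of 4 to 8, also chosen then, the density ratio was 0.47 (etoposide) and 0.57 (DMSO) and the log2 share ratio was -0.27 (etoposide) and 0.16 (p-benzoquinone). With scores of at least 4, the density ratio was 1.029 (etoposide), 0.601 (p-benzoquinone) and 0.904 (DMSO) and the ratio of median scores was 0.999 (etoposide), 0.964 (p-benzoquinone) and 1.037 (DMSO). There, the log2 share ratio was 0.22 (genistein), 0.22 (mitoxantrone) and -0.55 (p-benzoquinone), and windows called higher numbered 14 (genistein) and 19 (mitoxantrone), and windows called lower numbered 116 (p-benzoquinone). With no minimum number of regions, the density ratio was 0.979 (genistein), 0.974 (mitoxantrone), 0.874 (etoposide), 0.592 (p-benzoquinone) and 0.754 (DMSO) and windows called higher numbered 25 (etoposide) and 5 (p-benzoquinone). There, windows called lower numbered 8 (genistein), 5 (mitoxantrone) and 10 (etoposide). With at least 100 regions per window, the density ratio was 1.09 (genistein), 1.084 (mitoxantrone), 0.973 (etoposide), 0.659 (p-benzoquinone) and 0.838 (DMSO) and windows called lower numbered 0 (genistein), 1 (mitoxantrone) and 0 (etoposide). With windows shifted by 500 kb, the density ratio was 1.088 (genistein), 0.664 (p-benzoquinone) and 0.837 (DMSO) and windows called higher numbered 0 (p-benzoquinone). In it, windows called lower numbered 1 (mitoxantrone) and 0 (etoposide). With windows of 500 kb holding at least 25 regions, the density ratio was 1.096 (genistein), 1.083 (mitoxantrone), 0.99 (etoposide), 0.728 (p-benzoquinone) and 0.887 (DMSO) and the ratio of median scores was 0.9752 (mitoxantrone) and 1.112 (DMSO). In it, the log2 share ratio was 0.26 (genistein), 0.24 (mitoxantrone), 0.13 (etoposide) and -0.25 (p-benzoquinone), and windows called higher numbered 161 (genistein), 164 (mitoxantrone), 94 (etoposide) and 5 (p-benzoquinone), and windows called lower numbered 14 (genistein), 15 (mitoxantrone), 18 (etoposide) and 185 (p-benzoquinone). In the 5 windows with no RefSeq gene at all, the density ratio was 0.416 (genistein), 0.47 (mitoxantrone), 0.35 (etoposide), 0.246 (p-benzoquinone) and 0.307 (DMSO) and the ratio of median scores was 0.923 (genistein), 0.89 (mitoxantrone) and 0.812 (p-benzoquinone). In it, the log2 share ratio was 0.41 (genistein), 0.59 (mitoxantrone) and -0.29 (p-benzoquinone), and windows called higher numbered 1 (genistein), 3 (mitoxantrone), 1 (etoposide) and 0 (p-benzoquinone), and windows called lower numbered 1 (genistein), 0 (mitoxantrone), 0 (etoposide) and 1 (p-benzoquinone). By covered bases, the density ratio was 0.974 (etoposide) and 0.619 (p-benzoquinone) and the log2 share ratio was -0.39 (p-benzoquinone). Without chromosomes 9, 13 and 22, the density ratio was 0.658 (p-benzoquinone) and windows called higher numbered 0 (p-benzoquinone). In the 195 windows with every 100 kb bin filled, a choice made after seeing the data, the density ratio was 1.082 (genistein) and 0.837 (DMSO) and windows called lower numbered 0 (genistein), 0 (mitoxantrone) and 0 (etoposide). The cause of these moves was not tested. The share of all windows called was taken for the main setting only. Numbers of called windows under the other settings thus have no background beside them and are not a result about deserts. Numbers per window within a step class are small, and the windows with no RefSeq gene number only 5. Among these, chr10:41000001-42000000, chr5:46000001-47000000 and chr10:39000001-40000000 had regions in only 3, 5 and 6 of their 10 bins of 100 kb. Their low densities are thus those of partly empty windows, and the part of missing RNA genes was not tested. No paired analysis was possible because each treatment has 1 pooled list, and for the same reason no library could be left out. Base composition of the regions was not taken into account, as no genome was used here. Library depth is unknown, so it limits all values in a way that cannot be stated here.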

Other observations

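MicroRNA genes are rare in deserts. Of 23 hairpins with a RefSeq sequence there, 4 overlapped a region of any list (17.4%, 4.95 to 38.8), against 166 of 1390 in gene-bearing windows (11.9%, 10.3 to 13.8), so the shares overlap within counting error. MIR4300 overlapped an etoposide region, MIR3668 and MIR135A2 a genistein region each, and MIR4465 a mitoxantrone region. MIRLET7C and MIR99A, which lie close together on chromosome 21, overlapped none.

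The number of regions per desert window ran most alike in p-benzoquinone and DMSO, with a Spearman correlation of 0.78 over 214 windows, and least alike in mitoxantrone and p-benzoquinone, at 0.45. Genistein and p-benzoquinone stood at 0.46 over desert windows and 0.040 over gene-bearing windows. Windows share gaps and base composition across lists, so these values are a description only.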
